A study of Saccharomyces cerevisiae with 7 samples.

Results

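The 8 genes described here, out of 6665 in the gene tables, are known as markers of yeast that has stopped growing or met drought, salt or starvation. They were chosen by name from what is known of them, with earlier results of these data also known. They are the hydrophilins SIP18 (YMR175W) and GRE1 (YPL223C), the cell-wall gene SPI1 (YER150W), and the stationary-phase genes SPG1 (YGR236C), SPG4 (YMR107W) and SPG5 (YMR191W). The vitamin B6 genes SNZ1 (YMR096W) and SNO1 (YMR095C) complete the set. All 8 had a row in the tables and all 8 passed the filter on low counts.

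RNA depleted of ribosomal RNA was sequenced from the haploid laboratory strain BY4741 of Saccharomyces cerevisiae. Every library was labelled wild type (WT), and cells were grown at 30 °C on synthetic complete (SC) medium in every group. Log-phase cultures (2 libraries) and saturated cultures (2 libraries) were both started at an OD600 of 0.2, a measure of cell density, and the former were taken at 0.5. For the rapamycin groups, cells regrown for 4 h were filtered and moved to fresh medium with 100 nM rapamycin, a drug that blocks the TOR growth kinase, and were taken once after 1 h and once after 4 h. The lawn, with 1 library, was made by spreading cells on 10-cm SC plates and leaving them for 3 days. No library moved to fresh medium without the drug was analysed here. Rapamycin and that transfer therefore cannot be told apart in comparisons with log phase, saturated cultures or the lawn. Between 1 h and 4 h, time in the drug and time since the transfer cannot be told apart either. Nothing in the labels tells whether paired libraries were grown separately; p-values therefore speak only of the spread among these samples, which may be technical.

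Hydrophilins are small, glycine-rich, water-loving proteins that keep little fixed structure and protect membranes and enzymes when water is lost. Yeast cells that run out of glucose first switch to respiration and then enter stationary phase, where they stop dividing, thicken the wall and become hardy to heat and drying. TOR and protein kinase A hold this programme down during growth, and the transcription factors Msn2, Msn4 and Gis1 act in it when those kinases are inactive. Snz1 and Sno1 form the enzyme that makes pyridoxal phosphate, the active form of vitamin B6, with Sno1 as the glutaminase that supplies ammonia, and their genes are also targets of Gcn4, the activator of amino acid synthesis.

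Gene reads ran from 1019287 to 9438379 per library. Of the markers known to be deleted in this strain, LEU2 had at most 1 read in a library and MET17 at most 12, while URA3 had 0 to 3 reads in 6 libraries and 44 at 4 h of rapamycin. HIS3, whose allele in this strain is an internal deletion, had 126 to 2262 reads. The a-factor and receptor genes MFA1, MFA2 and STE2 had at least 11 reads in every library, and the alpha-factor genes MF(ALPHA)1 and MF(ALPHA)2 at most 7, while the alpha-cell receptor gene STE3 had 14 to 89. TPM below is the authors' value, reads per coding length scaled to a sum of 1000000 over genes and introns, so it compares levels between genes. Counting intervals are exact at 95% and cover counting error only. In bulk RNA, a gene read in more of the cells and a gene with more RNA per cell cannot be told apart.

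Together the 8 genes held 0.0143% and 0.0193% of all gene TPM in log phase, against 1.14% and 1.37% in saturated cultures. Their share was 0.105% after 1 h of rapamycin, 0.393% after 4 h and 2.51% in the lawn. Single genes made up much of these sums. SPI1 held 8703 of 10437 TPM and 9728 of 12647 TPM in the saturated libraries, and SIP18 10710 of 22948 TPM in the lawn. The order within the group changed with the condition. SPI1 led in both saturated libraries, SNZ1 led at both rapamycin times, and SIP18 led in the lawn, where it ranked 2 among all 6665 genes by TPM. In log phase SNZ1 led in replicate 1 and SPG5 in replicate 2, and no gene of the 8 exceeded 55.3 TPM.

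**Figure D1:**
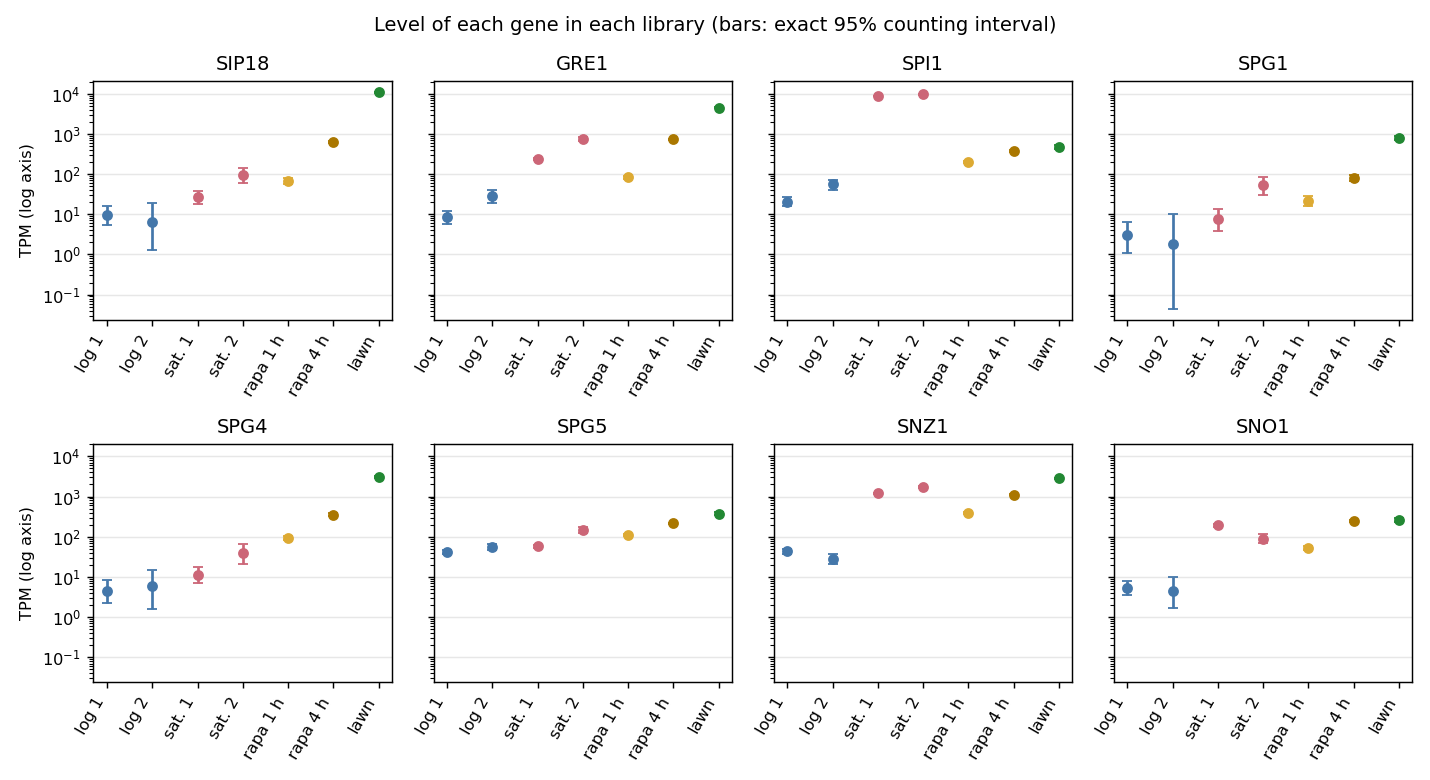
TPM of each gene (log axis) in each of the 7 libraries, with the exact 95% counting interval as a bar. SPI1 is highest in the saturated pair (8703 and 9728 TPM), the other 7 genes have their highest TPM in the lawn.

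Against log phase all 8 genes rose in saturated cultures, at 4 h of rapamycin and in the lawn, and 5 of 8 rose at 1 h of rapamycin. Among all 5827 genes tested, 27.9% rose in saturated cultures, 14.8% at 4 h, 20.7% in the lawn and 9.18% at 1 h (edgeR quasi-likelihood test with Benjamini-Hochberg adjustment over all genes tested, adjusted p under 0.05). The median log2 change of the 8 genes was 4.17 in saturated cultures, 2.37 at 1 h, 4.67 at 4 h and 6.65 in the lawn, where the median of all genes tested lay between 0.04 and 0.10. These comparisons share the log-phase libraries. The rapamycin and lawn groups, having 1 library each, borrow the spread of the 2 pairs and have no replicate check. The 8 genes were chosen with earlier results of these data known, so their counts beside all genes are not independent evidence. Log2 changes below are from this fit, with standard errors (SE) after ±.

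**Figure D2:**
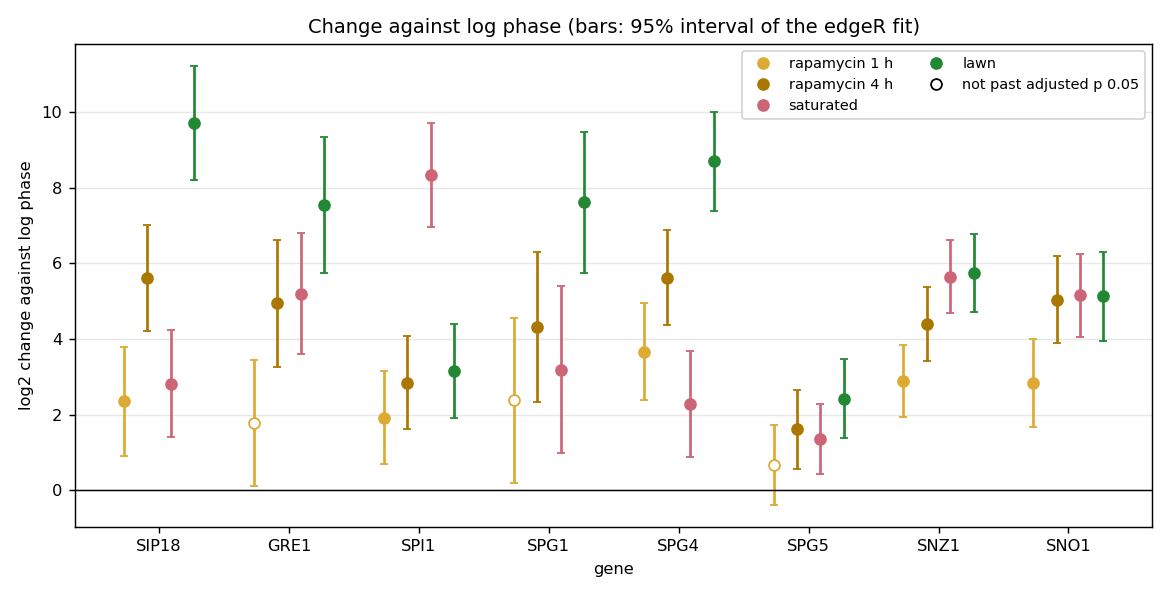
Log2 change against log phase for each gene in the edgeR fit, with its 95% interval; open points did not pass an adjusted p of 0.05. SIP18, SPG1 and SPG4 stand highest in the lawn (9.71, 7.62 and 8.70), SPI1 in saturated cultures (8.33), while SNZ1 and SNO1 are at like heights in both.

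SIP18 encodes a hydrophilin that binds phospholipids and is linked to survival of drying and rewetting. Its span is chromosome XIII, 611016 to 611255 (build R64). Log phase gave it 9.65 and 6.41 TPM, resting on 16 and 3 reads, and saturated cultures 26.4 and 92.2 TPM. It reached 65.8 TPM 1 h into rapamycin, 618 TPM 4 h into it and 10710 TPM in the lawn. The lawn library was far above every other, the rapamycin 1 h library lay between the 2 saturated ones, and both log-phase libraries were below all the rest. The log2 rise was 2.82 ± 0.63 in saturated cultures (edgeR, adjusted p = 0.00497), 2.36 ± 0.64 at 1 h (adjusted p = 0.0285), 5.60 ± 0.62 at 4 h (adjusted p = 0.000759) and 9.71 ± 0.67 in the lawn (adjusted p = 4.67e-05). Among all genes tested, the lawn rise of SIP18 ranked 2. In the order of conditions the lawn stood above 4 h of rapamycin by 4.10 ± 0.67 and that above saturated cultures by 2.78 ± 0.56 (edgeR, adjusted p = 0.0271 and 0.0158). Saturated cultures and 1 h did not differ detectably (0.46 ± 0.60, edgeR, adjusted p = 0.578), and their order turned without saturated replicate 2 (1 h higher by 0.60) and with plain library totals (1 h higher by 0.12). The 4 comparisons of rapamycin with saturated cultures or with the lawn were added after seeing the data.

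A small gene known by its systematic name alone, YMR175W-A, begins 58 bp beyond the end of SIP18 on the same strand, and its reads moved with those of SIP18. Log phase gave it 4 and 1 reads and saturated cultures 5 and 4, while rapamycin gave 16 reads at 1 h and 107 at 4 h and the lawn 479. That is between 11.8 and 17.4 reads per 100 SIP18 reads in the 5 libraries outside log phase. Whether the rows share one transcript was not tested. PAI3, the gene of a protease inhibitor, is read away from SIP18 across 650 bp on the other side. It rose by 2.15 ± 0.62 in saturated cultures, 2.94 ± 0.61 at 1 h, 3.95 ± 0.61 at 4 h and 5.72 ± 0.62 in the lawn (edgeR, adjusted p = 0.0168, 0.0085, 0.00326 and 0.000297).

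GRE1, the paralog of SIP18 from the ancient genome duplication, encodes a hydrophilin that is also raised by salt and oxidative stress. It lies on chromosome XVI, 128632 to 129138. Log-phase levels were 8.57 and 28.3 TPM (30 and 28 reads), and saturated levels were 236 and 755 TPM. The level was 82.2 TPM 1 h into rapamycin, 731 TPM 4 h into it and 4452 TPM in the lawn, a rank of 7 among all genes. The 4 h library lay within the saturated pair and the lawn above it. GRE1 rose by 5.20 ± 0.71 in saturated cultures (edgeR, adjusted p = 0.000402), by 4.95 ± 0.74 at 4 h (adjusted p = 0.00282) and by 7.55 ± 0.80 in the lawn (adjusted p = 0.000258). At 1 h its change of 1.78 ± 0.73 did not pass (edgeR, adjusted p = 0.123). Without log-phase replicate 2, the higher of the pair, that value was 2.66. FMP40, which is read away from GRE1 across 1023 bp, also rose in saturated cultures (2.36 ± 0.47), at 4 h (1.94 ± 0.52) and in the lawn (3.23 ± 0.53). No pair of neighbouring conditions in the order lawn, saturated, 4 h, 1 h and log phase differed past the threshold for GRE1. The nearest to it was the lawn over saturated cultures (2.34 ± 0.66, edgeR, adjusted p = 0.0509). That difference ran from 1.70 to 3.35 with each of the 4 paired libraries left out in turn.

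The paralogs differed in their balance. SIP18 TPM was 0.112 and 0.122 times that of GRE1 in the saturated libraries, with counting intervals of 0.0756 to 0.159 and 0.0765 to 0.186. It was 0.802 (0.649 to 0.984) and 0.845 (0.782 to 0.913) times at 1 h and 4 h of rapamycin, and 2.41 (2.29 to 2.53) times in the lawn. The ratio in log phase was 1.13 (0.574 to 2.13) in replicate 1 and 0.226 (0.0440 to 0.733) in replicate 2, so the replicates themselves spread widely at that depth. Saturated, rapamycin and lawn intervals did not overlap each other between these 3 kinds of growth. GRE1 thus had the higher TPM in the saturated and rapamycin libraries and SIP18 in the lawn library. These intervals cover counting error only, and the ratios at 1 h, at 4 h and in the lawn rest on 1 library each. Spread between cultures could therefore not be judged for them.

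**Figure D3:**
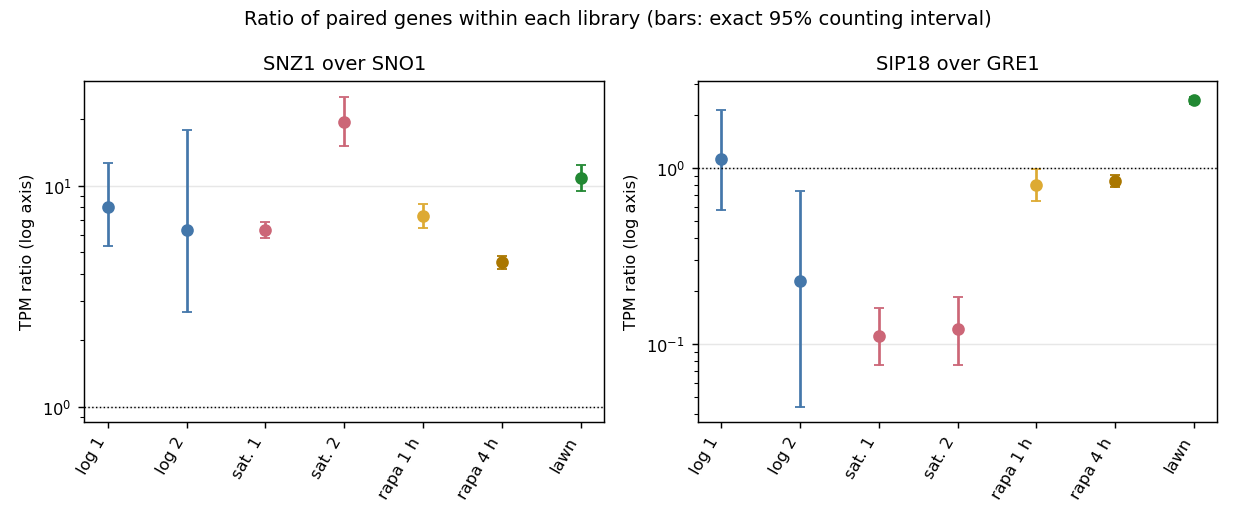
TPM ratio of SNZ1 over SNO1 and of SIP18 over GRE1 in each library (log axis), with exact 95% counting intervals; the dotted line marks equal TPM. SIP18 over GRE1 is 0.112 and 0.122 in the saturated pair and 2.41 in the lawn; SNZ1 over SNO1 runs from 4.52 to 19.4.

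SPI1 encodes a small cell-wall protein held by a glycolipid (GPI) anchor, known for resistance to weak acids such as acetate. It lies on chromosome V, 468370 to 468816. Its level was 20.7 and 55.1 TPM in log phase and 8703 and 9728 TPM in saturated cultures, ranks of 15 and 14 among all genes. Rapamycin gave 198 TPM at 1 h and 371 at 4 h, and the lawn gave 464. The saturated libraries stood alone, and the other 3 conditions lay between them and log phase. SPI1 rose by 8.33 ± 0.61 in saturated cultures, 1.93 ± 0.54 at 1 h, 2.85 ± 0.54 at 4 h and 3.16 ± 0.55 in the lawn (edgeR, adjusted p = 3.98e-05, 0.0345, 0.00695 and 0.00221). Without log-phase replicate 1 the calls at 1 h (1.32) and 4 h (2.23) were lost (edgeR, adjusted p = 0.360 and 0.0502). Saturated cultures exceeded the lawn by 5.18 ± 0.72 (edgeR, adjusted p = 0.00314). PEA2, read away from SPI1 across 899 bp, rose in saturated cultures (1.39 ± 0.28) and gave −0.86 ± 0.38 in the lawn, which did not pass (edgeR, adjusted p = 0.0981). The lawn and 4 h did not differ detectably (0.31 ± 0.63), nor did 4 h and 1 h (0.92 ± 0.63; edgeR, adjusted p = 0.888 and 0.449).

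SED1, a GPI-anchored wall gene similar to SPI1, showed another pattern. It had 829 and 1220 TPM in log phase and 468 and 1201 TPM in saturated cultures. At 1 h and 4 h of rapamycin it stood at 2547 and 4336 TPM, and in the lawn at 1776. None of these changes from log phase passed the test, the nearest being 1.56 ± 0.53 at 4 h (edgeR, adjusted p = 0.0602). Of 10 structural wall genes examined, which include SED1, 2 rose and 5 fell in saturated cultures, and 1 rose and 6 fell in the lawn. Among all genes tested, 27.9% rose and 25.1% fell in saturated cultures and 20.7% rose and 20.9% fell in the lawn. The median log2 changes of the wall genes were −1.42 and −2.25. PIR3 rose in both (8.35 ± 0.58 and 5.98 ± 0.56), whereas CWP1 (−4.61 ± 0.45 and −5.21 ± 0.63), CIS3 (−2.78 ± 0.43 and −5.64 ± 0.69) and TIR1 (−3.47 ± 0.58 and −3.42 ± 0.77) fell. The risers in saturated cultures numbered 1 without either log-phase replicate.

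SPG4, one of the genes named for survival of heat in stationary phase, lies on chromosome XIII, 483014 to 483361. It was at 4.58 and 5.90 TPM in log phase (11 and 4 reads) and in saturated cultures at 11.4 and 38.7 TPM (20 and 14 reads). It had 92.9 TPM 1 h into rapamycin, 358 TPM 4 h into it and 3035 TPM in the lawn, a rank of 18. Both rapamycin libraries were above both saturated ones, and the groups did not overlap. SPG4 rose by 2.29 ± 0.62 in saturated cultures, 3.66 ± 0.57 at 1 h, 5.62 ± 0.56 at 4 h and 8.70 ± 0.58 in the lawn (edgeR, adjusted p = 0.0128, 0.00174, 0.000597 and 4.63e-05). Its lawn rise ranked 7 among all genes. The lawn exceeded 4 h by 3.07 ± 0.55 (edgeR, adjusted p = 0.0369, and 0.0537 with plain library totals). The steps from 4 h to 1 h and from 1 h to saturated cultures did not pass (1.96 ± 0.53 and 1.38 ± 0.53; edgeR, adjusted p = 0.0665 and 0.0718). The whole step from 4 h to saturated cultures passed, with 4 h higher by 3.34 ± 0.51 (edgeR, adjusted p = 0.00616).

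SPG1, whose product is found at mitochondria, had the fewest reads and lies on chromosome VII, 962530 to 962817. Log phase gave 6 and 1 reads, or 3.02 TPM (counting interval 1.11 to 6.57) and 1.78 TPM (0.0451 to 9.92). Saturated cultures gave 11 and 16 reads, or 7.56 TPM (3.77 to 13.5) and 53.4 TPM (30.5 to 86.8). The level was 21.3 TPM 1 h into rapamycin, 80.8 TPM 4 h into it and 801 TPM in the lawn. The saturated libraries did not overlap each other within counting error, and the 1 h library lay between them. SPG1 rose by 3.19 ± 0.98 in saturated cultures, 4.32 ± 0.87 at 4 h and 7.62 ± 0.82 in the lawn (edgeR, adjusted p = 0.0224, 0.00839 and 0.000297), while 2.39 ± 0.96 at 1 h did not pass (adjusted p = 0.117). With a log-phase total of 7 reads, sizes for this gene are imprecise. No neighbouring conditions in its order differed past the threshold, but the lawn exceeded saturated cultures (4.43 ± 0.71, edgeR, adjusted p = 0.00559).

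SPG5, which encodes a regulator of the proteasome in stationary phase, changed least of the 8 genes in each of the 4 comparisons with log phase. It lies on chromosome XIII, 645656 to 646777. It was already at 42.6 and 55.3 TPM in log phase and had 57.5 and 148 TPM in saturated cultures. It had 113 TPM 1 h into rapamycin, 214 TPM 4 h into it and 379 TPM in the lawn. The lower saturated library was close to the higher log-phase one, 1 h lay within the saturated pair, and 4 h and the lawn lay above it. The rises were 1.35 ± 0.41 in saturated cultures, 1.61 ± 0.46 at 4 h and 2.42 ± 0.46 in the lawn (edgeR, adjusted p = 0.0209, 0.0319 and 0.00343), and 1 h gave 0.68 ± 0.47 (adjusted p = 0.352, 95% interval −0.38 to 1.74). SGS1, read away from SPG5 across 397 bp, passed in none of the 4 comparisons with log phase (−0.72 ± 0.34 in saturated cultures and −0.68 ± 0.42 in the lawn, edgeR, adjusted p = 0.104 and 0.229). The saturated call of SPG5 rests on single libraries. It was 0.41 without saturated replicate 2 (edgeR, adjusted p = 0.232), 1.20 without log-phase replicate 1 (0.0717) and 1.05 with plain library totals (0.0675). The call at 4 h was lost without log-phase replicate 1 (1.44, edgeR, adjusted p = 0.100).

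SNZ1 and SNO1 are neighbours transcribed away from each other across 448 bp on chromosome XIII, with SNO1 at 457285 to 457959 and SNZ1 at 458408 to 459301. SNZ1 had 43.1 and 28.7 TPM in log phase and 1203 and 1741 TPM in saturated cultures. It had 393 TPM 1 h into rapamycin, 1103 TPM 4 h into it and 2845 TPM in the lawn. The lawn was highest, the saturated pair came next with 4 h just below it, and no log-phase value overlapped another condition. SNZ1 rose by 5.65 ± 0.43 in saturated cultures, 2.89 ± 0.42 at 1 h, 4.39 ± 0.43 at 4 h and 5.75 ± 0.45 in the lawn (edgeR, adjusted p = 4.07e-05, 0.00131, 0.000597 and 7.41e-05). Of the steps between neighbouring conditions, that from log phase to 1 h alone passed.

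SNO1 ran lower throughout, at 5.36 and 4.56 TPM in log phase (25 and 6 reads) and 191 and 89.8 TPM in saturated cultures. It had 53.9 TPM 1 h into rapamycin, 244 TPM 4 h into it and 263 TPM in the lawn. The 4 h and lawn libraries were close to each other and to the higher saturated library, with 1 h below and log phase lowest. SNO1 rose by 5.15 ± 0.48 in saturated cultures, 2.84 ± 0.51 at 1 h, 5.04 ± 0.51 at 4 h and 5.13 ± 0.52 in the lawn (edgeR, adjusted p = 7.93e-05, 0.00399, 0.000597 and 0.000205). Saturated cultures exceeded 1 h by 2.31 ± 0.50 (edgeR, adjusted p = 0.00862), but saturated cultures, 4 h and the lawn could not be ordered (differences within 0.12 of 0).

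SNZ1 exceeded SNO1 in every library, by a TPM ratio of 8.03 (counting interval 5.32 to 12.6) and 6.29 (2.70 to 17.96) in log phase. The ratio was 7.29 (6.47 to 8.25) at 1 h of rapamycin, 4.52 (4.23 to 4.84) at 4 h and 10.8 (9.45 to 12.5) in the lawn. The saturated replicates gave 6.29 (5.80 to 6.83) and 19.4 (15.1 to 25.4), a gap between replicates as wide as any between conditions. Within the 8 genes, SNZ1 and SNO1 each correlated best with the other (Pearson r = 0.97 over 7 libraries, a description without a test) in log2 CPM, here reads scaled to 1000000 per library after TMM adjustment of its size. On that scale the highest library was saturated replicate 2 for SNZ1 and saturated replicate 1 for SNO1, where TPM put the lawn highest for both.

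The SNZ and SNO paralogs near chromosome ends, SNZ2, SNZ3, SNO2 and SNO3, stayed low. None exceeded 11.5 TPM in any library, against 28.7 TPM or more for SNZ1. SNZ2 and SNZ3, and likewise SNO2 and SNO3, are near-identical copies, so the counting could have split or dropped their reads. SNZ3 had 3 reads in both log-phase libraries together and 22 in saturated cultures, a ratio of 11.1 after division by gene reads with a counting interval of 3.33 to 57.8. SNO3 had 2 and 11 reads, a ratio of 8.31 (1.81 to 77.2). SNO2 had 8 reads in saturated replicate 1 and 0 in replicate 2. Of 8 other vitamin B6 genes, these 4 included, 4 rose in saturated cultures by edgeR and the other 4 did not pass, beside 27.9% of all genes that rose. The risers were SNZ3, SNO3, PDX3, the oxidase that finishes pyridoxal phosphate (1.88 ± 0.44), and TPN1, the pyridoxine transporter (1.16 ± 0.27). Their number was 1 without log-phase replicate 1 and 2 in a fit of the 4 log-phase and saturated libraries. In the lawn 1 of the 8 rose, TPN1 (1.66 ± 0.31), a share below the 20.7% of all genes, though 3 rose without log-phase replicate 2 and 4 without either saturated replicate. Some thiamine genes lie beside the SNZ and SNO copies near chromosome ends. Of these, THI5 and THI12 had at most 4 and 2 reads in any library and were not tested. Thiamine genes rose for 7 of 11 tested in saturated cultures and fell for 1, where 27.9% and 25.1% of all genes did. Among them THI4, of thiazole synthesis, rose by 9.38 ± 0.56, and PHO3 fell (−1.49 ± 0.43). In the lawn THI4 was lower than in saturated cultures (−7.32 ± 0.69), where SNZ1 and SNO1 showed no detectable difference.

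The lawn and the saturated cultures were both grown without the drug, on plates and in liquid, and several of the 8 genes differed between them. The lawn was left for 3 days, and no time is given here for the saturated cultures. Surface and culture age therefore cannot be told apart in this comparison. SIP18 was higher in the lawn by 6.89 ± 0.59, SPG4 by 6.41 ± 0.52 and SPG1 by 4.43 ± 0.71 (edgeR, adjusted p = 0.000453, 0.000453 and 0.00559). SPI1 was lower in the lawn by a log2 value of −5.18 ± 0.72. Thus 3 of 8 were higher and 1 lower, beside 5.05% of all genes higher and 7.14% lower. SNZ1 (0.09, 95% interval −0.87 to 1.06) and SNO1 (−0.02, −1.04 to 0.99) did not pass (edgeR, adjusted p = 0.916 and 0.982). SPG5 at 1.07 ± 0.47 and GRE1 at 2.34 ± 0.66 did not pass either. With plain library totals 5 of the 8 were higher, GRE1 (3.07) and SPG5 (1.798) among them. That scaling moved the median of all genes from −0.05 to 0.69, and the number of all genes called higher grew as well.

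**Figure D4:**
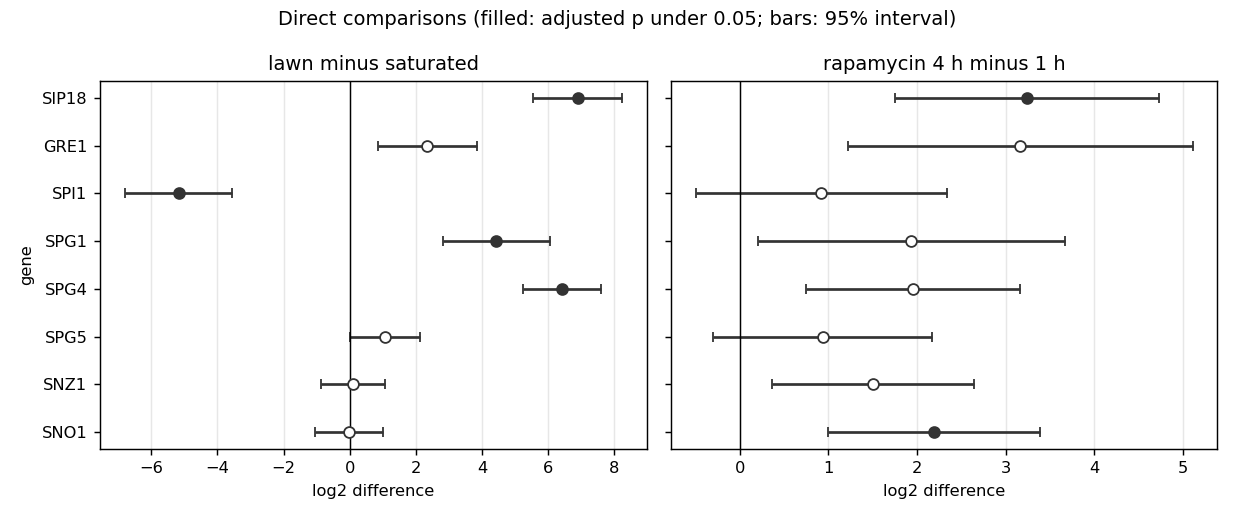
Log2 difference of the lawn from saturated cultures (left) and of 4 h from 1 h of rapamycin (right) with 95% intervals of the edgeR fit; filled points passed an adjusted p of 0.05. SIP18, SPG1 and SPG4 lie right of 0 and SPI1 left of it in the lawn; all 8 genes lie right of 0 at 4 h, with SIP18 and SNO1 past the threshold.

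Of a list of 17 tested stationary-phase and starvation genes other than the 8, 14 rose in saturated cultures and 14 in the lawn (27.9% and 20.7% of all genes), with 3 not past the threshold each time. HSP32, on the same list, had no reads in any library, and its near copies HSP31, HSP33 and SNO4 could share reads. Between lawn and saturated cultures, 4 of the 17 were higher in the lawn and 5 lower, with a median of −0.11, beside 5.05% and 7.14% of all genes. Higher were RGI2, a respiratory growth gene (5.43 ± 0.91, with 53 lawn reads against 2 and 1 saturated reads), SSA3, a stress Hsp70 (3.39 ± 0.39), FMP45, a membrane gene (3.25 ± 0.74), and CTT1, cytosolic catalase (2.22 ± 0.62). Lower were YGP1, a secreted glycoprotein of starved cells (−3.79 ± 0.52), HSP30 (−3.23 ± 0.62), HSP31 (−3.19 ± 0.51), GRE2 (−2.68 ± 0.44) and GRE3 (−1.99 ± 0.53). YGP1 had 226 and 246 TPM in log phase, 4978 and 5256 in saturated cultures and 672 in the lawn. SSA3 was as low in saturated cultures (19.5 and 34.5 TPM) as in log phase (22.0 and 19.99 TPM) and stood at 738 TPM at 4 h of rapamycin and 498 TPM in the lawn. The list's median log2 change was 3.28 in saturated cultures and 4.02 in the lawn; with HSP33, which had no log-phase reads, set to its lower bound from 3 reads over the group, it was 3.18 and 4.02. Most of the list belongs to the same stress response as the 8 genes and was chosen with earlier results of these data known, so its direction is not independent evidence.

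Between 1 h and 4 h of rapamycin all 8 genes had higher estimates at 4 h, from 0.92 to 3.24, and 2 of 8 passed, beside 5.29% of all genes. SIP18 was higher at 4 h by 3.24 ± 0.66 and SNO1 by 2.19 ± 0.53 (edgeR, adjusted p = 0.0234 and 0.0441), and SNO1 missed with plain library totals (2.24, adjusted p = 0.0515). GRE1 (3.17 ± 0.86) and SPG4 (1.96 ± 0.53) lay just outside (edgeR, adjusted p = 0.0665 each). At 1 h, 11 of the 17 other stationary-phase genes rose and at 4 h 9 did (9.18% and 14.8% of all genes), with medians of 1.90 and 2.36. The count at 1 h fell to 5 without log-phase replicate 1. Each time point is a single library. With any paired library left out, more of the 8 genes were called higher at 4 h, and so were more of all genes.

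At 4 h of rapamycin SIP18 and SPG4 were higher than in saturated cultures (2.78 ± 0.56 and 3.34 ± 0.51) and SPI1 lower (−5.49 ± 0.73; edgeR, adjusted p = 0.0158, 0.00616 and 0.00394). That is 2 of 8 higher and 1 lower, beside 7.57% and 7.95% of all genes. At 1 h, 4 of 8 were lower than in saturated cultures, beside 19.7% of all genes, namely SPI1 (−6.41 ± 0.76), GRE1 (−3.42 ± 0.83), SNZ1 (−2.77 ± 0.49) and SNO1 (−2.31 ± 0.50). The lawn exceeded 1 h for 6 of 8 (10.6% of all genes) and 4 h for 2 of 8, SIP18 and SPG4 (0.978%).

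Of 7 other hydrophilins tested, 2 rose and 1 fell in each of saturated cultures, 1 h of rapamycin and the lawn, and 1 rose at 4 h while the other 6 did not pass. The counts that rose are near the shares of all genes that did (27.9%, 9.18%, 20.7% and 14.8% in that order), apart from the 2 risers at 1 h. Of all genes, 25.1% fell in saturated cultures, 11.5% at 1 h, 20.9% in the lawn and 11.5% at 4 h. No difference from SIP18 and GRE1 was tested. ROQ1, a regulator of protein quality control, rose in all 4 (4.02 ± 0.34 in saturated cultures, 3.57 ± 0.36 at 1 h, 4.44 ± 0.36 at 4 h and 3.19 ± 0.39 in the lawn). STF2, a factor of the ATP synthase inhibitor system known for desiccation tolerance, rose in saturated cultures (2.38 ± 0.52), at 1 h (2.01 ± 0.57) and in the lawn (1.76 ± 0.59). NOP6, a ribosome assembly factor, fell in the same 3 conditions (−2.32 ± 0.34, −1.84 ± 0.37 and −1.54 ± 0.40). HSP12, a membrane-protecting hydrophilin, had 225 and 1553 TPM in log phase, 746 and 1743 in saturated cultures, 1858 and 1111 at 1 h and 4 h of rapamycin and 6483 in the lawn. Its log-phase replicates overlapped the saturated ones, and no change passed (lawn 2.35 ± 0.85, edgeR, adjusted p = 0.0534). Without log-phase replicate 1, 1 of the 7 rose at 1 h and 1 in the lawn, and the others did not pass. Without saturated replicate 2, 2 fell in saturated cultures; without log-phase replicate 2, and without either saturated replicate, 2 rose at 4 h.

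Transcripts of regulators of this response rose for 9 of 15 in saturated cultures and 7 of 15 in the lawn. Of all genes, 27.9% and 20.7% rose. In the lawn 1 of the 15, HOG1, was lower (−1.75 ± 0.38), beside 20.9% of all genes. At 4 h of rapamycin 5 of 15 rose, or 2 without log-phase replicate 1, and at 1 h 1 did, or 3 without saturated replicate 1, where 14.8% and 9.18% of all genes rose. MSN4 rose in saturated cultures (3.01 ± 0.36), at 4 h (2.54 ± 0.39) and in the lawn (2.49 ± 0.39), and GIS1 by 1.95 ± 0.27, 1.08 ± 0.31 and 2.43 ± 0.31. CAT8, an activator of gluconeogenic genes, rose at 1 h (2.29 ± 0.53), at 4 h (3.63 ± 0.54) and in the lawn (5.28 ± 0.56), where it exceeded saturated cultures by 4.77 ± 0.57 (edgeR, adjusted p = 0.00168). ADR1, which acts with it, was also higher in the lawn than in saturated cultures (2.28 ± 0.43). GCN4, which acts at SNZ1 and SNO1, rose in saturated cultures (1.19 ± 0.36). These are RNA levels, and the activity of the factors was not measured.

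The replicates of a pair differed for several of the 8 genes by more than counting error. In saturated cultures the ratio of replicate 2 to replicate 1, in reads over the library's gene reads with no TMM adjustment, was 6.66 for SPG1 (counting interval 2.90 to 15.9), 3.29 for SIP18 (1.84 to 5.80), 3.20 for SPG4 (1.497 to 6.67), 3.01 for GRE1 (2.64 to 3.42) and 2.43 for SPG5 (2.01 to 2.93). The middle 90% of 5484 genes with at least 20 reads spanned 0.453 to 2.10, so these 5 lay beyond its upper end. SPI1 (1.05) and SNZ1 (1.36) were inside it, and SNO1 was just below its lower end (0.442, 0.335 to 0.572). These same 5 had the highest estimates for the lawn over saturated cultures. In log phase, replicate 2 exceeded replicate 1 for GRE1 (3.34, 1.92 to 5.79) and SPI1 (2.69, 1.81 to 3.97), where the middle 90% of 5449 genes spanned 0.716 to 1.87. Below its lower end were SNZ1 (0.673, 0.487 to 0.913) and, with few reads and intervals that include 1, SIP18 (0.671, 0.125 to 2.35) and SPG1 (0.597, 0.0130 to 4.92). Without saturated replicate 2, the saturated rise was 1.72 for SIP18, 1.59 for SPG1, 1.34 for SPG4 and 4.07 for GRE1. Without saturated replicate 1 it was 3.51, 4.37, 3.08 and 5.71. The lawn excess over saturated cultures ran from 6.00 to 7.78 for SIP18, 5.43 to 7.17 for SPG4 and 3.05 to 5.83 for SPG1 as either saturated replicate was left out.

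The genes whose pattern over the 7 libraries was most like each of the 8 were found by Pearson correlation of TMM-adjusted log2 CPM among 4923 genes with a symbol and a mean of at least 10 CPM. The libraries share 5 conditions, and a correlation ignores how far a gene moves. AGP3, an amino acid permease gene, and MDH1, mitochondrial malate dehydrogenase, were nearest to SIP18 (r = 0.99 each), over 4.34 and 2.50 log2 units against 9.85. PDC6, a minor pyruvate decarboxylase, and ASA1 were nearest to GRE1 (r = 0.99 each), PDC6 over 8.98 and ASA1 over 1.83 log2 units against 8.35. NDI1, the internal NADH dehydrogenase, and TIM11, an ATP synthase subunit, were nearest to SPG4 (r = 1.00 and 0.99), over 3.12 and 1.99 log2 units against 8.51. LUC7, a splicing factor, and NUT2, a Mediator subunit, were nearest to SPI1 (r = 1.00 and 0.99), over 2.14 and 3.20 against 9.08. AKL1 and IRC20 were nearest to SNZ1 (r = 1.00 each), over 1.20 and 1.35 against 6.19. VAB2 and MDM31 were nearest to SNO1 (r = 0.99 each), NNK1 and MEF2 to SPG1 (r = 0.98 each), and GID12 and LIF1 to SPG5 (r = 0.99 and 0.98). Among the 8 genes themselves, SIP18, SPG1 and SPG4 were mutually close (r from 0.95 to 0.98). Other pairs lay in the same range, SPG5 with SPG1 (0.97) and with GRE1 (0.95), and SNZ1 with SNO1 (0.97). SPI1 had r of 0.14 with SPG4 and 0.22 with SIP18.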

How the data were processed

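The authors deposited a read count and a TPM value for each of 6665 genes in each of 7 libraries; the design text speaks of 10, and the others are not analysed here. Trimming with cutadapt 1.8, alignment software STAR 2.4 and build R64 are named in the submitters' processing notes. The sources used here do not give the counting tool, the annotation or the use of strand. Deposited TPM of genes and introns sums to 1000000 per library and, for the 8 genes, matches their coding lengths. RefSeq symbols and positions (assembly R64) were matched by locus tag for 5989 genes, not for 676. No annotated gene overlaps any of the 8. Promoter motifs and sequences were not analysed here.

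Counts were tested with edgeR 4.0.16 (R 4.3.3): quasi-likelihood, TMM scaling, its low-count filter (5827 genes tested, 838 not), 1 fit of all 7 libraries in 5 groups, two-sided, Benjamini-Hochberg adjustment over all genes tested. The fit had 2 residual and, by median over genes, 6.94 prior degrees of freedom. Alternatives were DESeq2 1.42.0, other scalings, no filter, each paired library left out, and a replicate block. A fit with a paired library left out takes its residual spread from the other pair alone, so calls gained that way are no check on a result. The edgeR fit was tested on simulated counts for saturated cultures over log phase only, with the same spread set for every gene. Comparisons with the single-library groups were not part of that test. Both pairs differed beyond sampling noise, with chi-square over degrees of freedom of 15.7 (log phase) and 34.7 (saturated).

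The 8 genes and all lists were chosen with earlier results of these data known. The text names the 8 genes, up to 4 genes of a list by size of change among those past the threshold, paralogs, genes sharing a promoter with the 8, and for each of the 8 the 2 nearest genes by correlation. CTT1, HSP30, HSP31, HSP33, GRE2, GRE3, HSP12, GCN4 and YMR175W-A were named after their values were seen.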

Additional observations from a re-analysis of the deposited data

Results flagged for a closer look

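The change from log phase differed between the rapamycin times for SIP18, whose level was higher at 4 h than at 1 h by a log2 value of 3.24, and for SNO1, higher by 2.19, each by the direct comparison of both times in the edgeR fit. Both results compare 1 library with 1 other, and time in the drug cannot be told apart from time since the transfer to fresh medium. The groups hold at most 2 libraries, so single libraries were not screened for standing apart within a group.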

How the results depend on the processing

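The 8 genes gave 655 results over 10 comparisons and the alternatives: 565 kept direction and side of the threshold, 67 newly passed, 8 no longer passed and 15 changed sign. The causes were not tested. The lawn held the highest level of 7 genes in TPM and in CPM, but of 5 in TMM-scaled CPM, an alternative added after seeing the data, where SNZ1 and SNO1 were highest in a saturated library.

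Plain library totals moved the median of all genes from 0.10 to −0.21 (saturated over log phase), 0.04 to 0.32 (1 h), 0.06 to 0.39 (4 h), 0.04 to 0.47 (lawn) and −0.05 to 0.69 (lawn over saturated). The counts higher and lower then became 1225 and 1833 in place of 1626 and 1460 (saturated), 919 and 590 in place of 535 and 673 (1 h), 1284 and 423 in place of 863 and 669 (4 h), 1772 and 870 in place of 1204 and 1218 (lawn), and 1387 and 216 in place of 294 and 416 (lawn over saturated). Of the 8 genes, 1 in place of 2 was then higher at 4 h than at 1 h, and 5 in place of 3 in the lawn than in saturated cultures. Between 4 h and 1 h, 57 genes were lower; DESeq2 size factors gave 111, DESeq2 itself 107 and no filter 99, and 4 of the 8 genes were higher with those size factors and with no filter.

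With each paired library left out in turn, the library left alone being assumed to vary like the other pair, genes called ran from 998 to 1615 higher (saturated), 221 to 1145 higher and 513 to 1140 lower (1 h), 392 to 1229 higher and 296 to 1535 lower (4 h), and 731 to 1434 higher and 822 to 1879 lower (lawn). They ran from 312 to 798 higher and 55 to 610 lower between 4 h and 1 h, and 283 to 698 higher and 394 to 938 lower between lawn and saturated cultures. Of the 8 genes, 4 to 6 were then higher at 4 h than at 1 h and 4 to 5 in the lawn than in saturated cultures.

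Changes of sign all concern differences that did not pass. With plain library totals these were SNO1 in the lawn over saturated cultures (0.71), GRE1 and SNO1 at 4 h over saturated cultures (0.37 and 0.52) and SIP18 at 1 h over saturated cultures (0.12); DESeq2 gave 0.012 for SNO1 in the first. With libraries left out, lawn over saturated cultures ran from −0.15 to 0.36 for SNZ1 and −0.43 to 0.69 for SNO1. At 4 h over saturated cultures the range was −0.87 to 0.79 for GRE1, −0.23 to 2.57 for SPG1, −0.29 to 1.06 for SPG5 and −0.49 to 0.62 for SNO1. At 1 h over saturated cultures it was −1.19 to 0.60 for SIP18, −2.03 to 0.77 for SPG1 and −1.09 to 0.26 for SPG5.

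Whether the replicate numbers pair the libraries is not known. The deviations of same-numbered libraries correlate at 0.19 over 5604 genes, and 2 pairs are too few to decide it. With a replicate block 8 of the 8 genes were higher in saturated cultures, among 1765 genes higher and 1578 lower. Depth limits SPG1, SIP18 and SPG4 most, with 7, 19 and 15 log-phase reads.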
